A study of Rattus norvegicus with 10 samples.

Results

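Macrophage lineage transcription factors were measured in splenic M2 macrophages of rats by RNA sequencing. The set was a list of 9 genes, namely Spi1, Runx1, Cebpa, Cebpb, Maf, Tfec, Id2, Id3 and Bhlhe40. All 9 were found by symbol among the 9003 genes of the expression table. The 10 libraries came from WKY rats (WKY/NCrj in the study) and fell into 4 groups. For its nephritis model the study used female rats of 7 to 12 weeks of age. Its methods do not state sex and age of the control rats separately. Control macrophages (n = 2) came from rats under physiological conditions. GN macrophages (n = 2) came from rats with anti-glomerular basement membrane nephritis, induced with the mouse monoclonal antibody TF78, that were given no adipose-derived mesenchymal stem cells (ASCs). EV+ macrophages (n = 3) and EV- macrophages (n = 3) both came from nephritic rats that were given human ASCs. The ASCs had been stained with the membrane dye DiD, and cells that carried the dye were sorted as EV+ and cells without it as EV-. The EV- cells thus also came from ASC-treated animals and are no untreated control. Dye marks transferred membrane and does not by itself tell vesicles from other membrane fragments.

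Macrophages are made and kept by a small network of transcription factors. Spi1 (PU.1) opens myeloid enhancers together with Runx1 and the C/EBP factors, and the Maf, MiT/TFE and Id families then shape what a mature macrophage expresses. Id proteins carry a helix-loop-helix but no DNA-binding region, so they hold E proteins away from DNA, whereas Bhlhe40 is a helix-loop-helix repressor that binds E-boxes and is known to restrain Il10.

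The labelled cell type was checked first. General macrophage transcripts were abundant, since the 9 of 10 markers in the table summed to between 26483 and 32842 CPM (read counts scaled to library size with the TMM method) and Csf1r, the receptor of the main macrophage growth factor, stood at 5800 CPM or more in every library. This sum was 26483 and 26704 in the controls and at least 30359 in the other 8 libraries. Most of it came from Lyz2 (mean 15719 CPM in control, 19720 CPM in GN) and Csf1r (6044 and 6993 CPM). By gene, the mean of log2 values was higher in GN than in control for 5 of the 9 markers. It was lower for 4, among them Cd68, Fcgr1a and Mpeg1, so the sum does not show a general rise. The 8 of 10 M2 markers in the table summed to 115 to 143 CPM, of which Tgfb1 alone made up 104 to 122 CPM and Il10 4.89 to 25.2 CPM. The other 6, among them Mrc1, Cd163 and Arg1, were at most 2.92 CPM in any library. One library stood apart, the first EV- replicate, in which the 21 of 26 NK and T cell markers in the table summed to 2599 CPM against 1674 to 1885 CPM in the other 9 libraries. Prf1 (perforin) was 335 CPM there, 51.4 and 24.5 CPM in the other EV- libraries and at most 18.4 CPM elsewhere, while Cd3e, which defines T cells, was 2.09 CPM in that library and had at most 1 read in each of the 7 libraries outside the EV- group. Reads on the tabulated genes ranged from 19270515 to 26617093 per library.

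The promoters of the members that changed are shown because these 3 genes, Cebpa, Cebpb and Id2, were lower than control together, and that of Tfec because its EV+ and EV- values lay apart. Each is the 250 bases before the start of the gene in RefSeq (build GRCr8), written from 5′ to 3′ on the strand of the gene. Of the 9 members 8 had an entry, while Spi1 had none and was not searched. Capitals mark matches, on either strand, to any of 8 short motifs that were searched. Cebpa lies at chr1:96896334-96896583 on the plus strand, Cebpb at chr3:176816755-176817004 on the plus strand, Id2 at chr6:47470996-47471245 on the minus strand and Tfec at chr4:46146201-46146450 on the minus strand.
Cebpa: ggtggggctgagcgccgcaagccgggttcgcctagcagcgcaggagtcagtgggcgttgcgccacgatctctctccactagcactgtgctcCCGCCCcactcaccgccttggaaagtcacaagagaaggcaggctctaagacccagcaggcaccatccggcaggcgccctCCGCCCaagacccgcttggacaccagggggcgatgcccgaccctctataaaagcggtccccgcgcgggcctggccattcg
Cebpb: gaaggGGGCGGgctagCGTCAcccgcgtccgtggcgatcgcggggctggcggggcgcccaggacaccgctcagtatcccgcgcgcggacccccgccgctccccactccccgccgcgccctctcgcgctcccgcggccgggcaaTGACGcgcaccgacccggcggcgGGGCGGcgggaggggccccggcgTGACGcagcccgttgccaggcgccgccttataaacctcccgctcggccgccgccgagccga
Id2: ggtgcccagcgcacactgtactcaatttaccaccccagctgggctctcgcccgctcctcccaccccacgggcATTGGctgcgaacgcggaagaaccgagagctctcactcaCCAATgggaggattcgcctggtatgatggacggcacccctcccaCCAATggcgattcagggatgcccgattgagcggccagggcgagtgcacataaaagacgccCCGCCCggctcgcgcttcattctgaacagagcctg
Tfec: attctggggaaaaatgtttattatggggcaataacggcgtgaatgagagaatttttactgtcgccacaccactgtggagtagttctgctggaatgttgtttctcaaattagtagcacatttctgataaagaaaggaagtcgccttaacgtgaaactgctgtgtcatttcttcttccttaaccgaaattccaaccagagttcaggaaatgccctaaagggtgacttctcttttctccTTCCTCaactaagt
G and C made up 67.2% of the Cebpa, 80.0% of the Cebpb and 62.8% of the Id2 stretch but 40.8% of the Tfec stretch. High shares were not particular to the members that changed. They were 73.2% in Maf, 66.0% in Bhlhe40 and 61.2% in Id3, against 37.2% in Runx1. In the Cebpb promoter TGACG, the core of a cyclic AMP response element, was found 3 times, starting at positions -234, -107 and -61 (counted back from -1 at the base before the start). None of the other members searched held it, and 18.2% of 33469 promoters did. CCAAT was found 3 times in Id2, at -178, -139 and -95, and once in Maf, against 34.0% of all promoters with at least 1 match. GGGCGG, the GC box, was present in Cebpa, Cebpb, Id2, Maf, Id3 and Bhlhe40 (30.5% of all promoters). GAGGAA, the core preferred by Spi1, was found in Tfec at -14 and in Id3 at -230 and -178 (23.3% of all promoters). The Bhlhe40 promoter held CACGTG, the E-box that Bhlhe40 itself binds (5.59%). None of the members searched held TTGCNNAA for C/EBP (9.22%), TGTGGT for Runx (14.5%) or TGCTGAC for Maf (3.53%). TGCTGAC and TGACG can share letters. A match is a description of letters and not a site of binding.

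**Figure D1:**
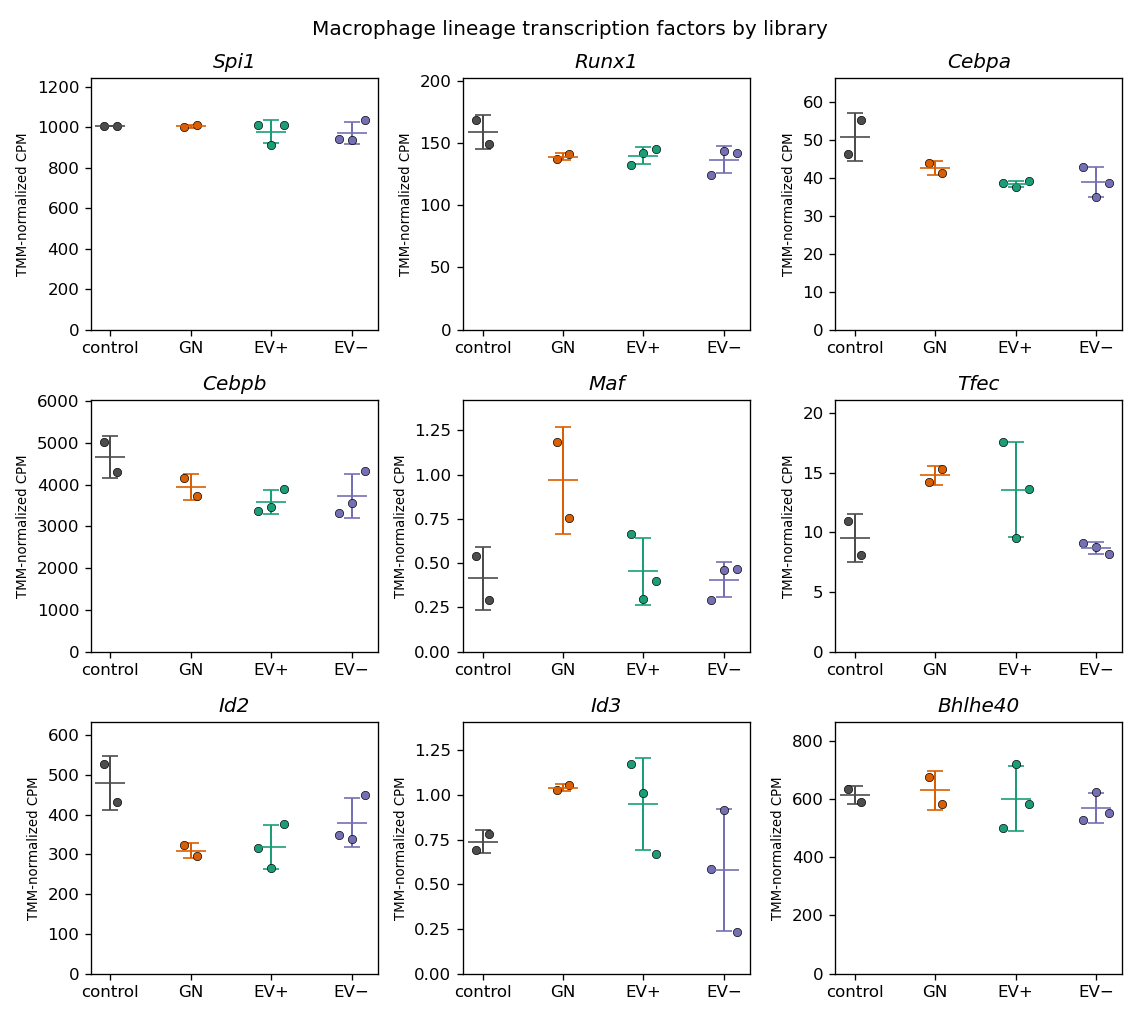
Expression of the 9 transcription factors in TMM-normalized CPM (vertical axis, from 0) in control (n = 2), GN (n = 2), EV+ (n = 3) and EV- (n = 3) macrophages. Points are libraries, in order of replicate number, and bars are the mean and SD. Spi1 stays between 910.5 and 1034 CPM, whereas Id2 is 433 CPM or more in both controls and 324 CPM or less in both GN libraries.

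Spi1, the master regulator of the lineage, had the least spread of the 9 members, and its group means differed by less than the spread between replicates. It was 1007 and 1008 CPM in control, 999 and 1009.6 CPM in GN, 1011, 910.5 and 1012 CPM in EV+, and 944, 934 and 1034 CPM in EV- macrophages. The libraries of all groups overlapped, and over all 10 libraries the mean was 987 ± 41.5 CPM (SD, n = 10). GN differed from control by a log2 fold change of -0.00 (95% interval -0.18 to 0.17), and EV+ from EV- by 0.01 (-0.13 to 0.15). These intervals bound the difference and do not show that the groups were equal. Fold changes here and below are on the scale of log2(CPM + 1), from limma over all 9003 genes, and a gene was called at a Benjamini-Hochberg adjusted p (FDR) under 0.1. In such bulk samples, fewer cells of a type and less RNA per cell cannot be told apart.

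Runx1, the partner of CBFB in blood cell formation, was 168 and 149 CPM in control, against 137 and 141 CPM in GN macrophages. It was 132, 142 and 145 CPM in EV+ and 124, 143 and 142 CPM in EV- macrophages. Both controls were above the other 8 libraries, which overlapped with one another. The difference between the mean of EV+ and EV- and control was -0.20 ± 0.0810 (SE) on the log2 scale, and it did not pass the adjustment over all genes (adjusted p = 0.250 by limma). For GN against control it was -0.19 (adjusted p = 0.568).

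The members that passed the test were Id2 in GN and Id2, Cebpa and Cebpb in ASC-treated nephritis, and each was lower than in control. Id2 fell in GN macrophages to 310.0 ± 19.8 CPM (SD, n = 2) from 480.1 ± 67.0 CPM in control (n = 2). In ASC-treated nephritis the mean of EV+ and EV- was below control by 0.47 for Id2, 0.38 for Cebpa and 0.35 for Cebpb on the log2 scale. These comparisons share the control libraries. The fit counted EV+ and EV- libraries as separate, although same-numbered ones were taken as pairs from the data. If such a pair shares an animal, the errors and adjusted p of this mean are too small.

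Between GN and control, 1 of the 9 members was called, and it was lower. Of all genes tested, 1.75% were called, and 0.822% were called lower. The members split 4 above and 5 below 0, with a median log2 fold change of -0.00, as was the median of all genes. GN and control values did not overlap for 7 of the 9 members (43.9% of all genes), namely for Maf, Tfec and Id3 with GN higher (21.9% of all genes) and for Cebpa, Cebpb, Runx1 and Id2 with GN lower (22.0%). With 2 libraries against 2, such a gap is common among all genes. Maf passed the filter of the table only through GN replicate 1. At an unadjusted p under 0.05 there were 2 members, Id2 and Tfec (10.4% of all genes).

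Id2 is an inhibitor of E proteins that is known from dendritic cell and NK cell development as well as from macrophages. It was 527 and 433 CPM in control, 324 and 296 CPM in GN, 317, 265 and 376 CPM in EV+, and 349.7, 339.9 and 451 CPM in EV- macrophages. Both GN libraries lay below both controls and below all 3 EV- libraries, and the third EV- library lay above the lower control. Group means thus ran from GN (310.0 CPM) over EV+ (319 ± 55.3 CPM) and EV- (380.2 ± 61.5 CPM) to control (480.1 CPM), and neighbours in this order from GN to EV- were not called apart. The fall in GN was 0.62 on the log2 scale (SE 0.157, adjusted p = 0.0887 by limma). It was not called by edgeR's quasi-likelihood test (adjusted p = 0.113), by limma without an intensity trend (0.297), or without either control (0.499 and 0.124) or either GN library (0.260 and 0.528). Without the first EV- library, which does not enter the difference but only its error, the adjusted p was 0.117.

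The mean of EV+ and EV- was lower than control for Id2 by 0.47 on the log2 scale (SE 0.128, adjusted p = 0.0723 by limma). Treated nephritis was therefore also below control, although the groups overlapped through the third EV- library. This call was lost without the intensity trend (adjusted p = 0.231) and in a fit of only the groups compared (0.107). Between EV+ and EV- the difference was -0.25 (95% interval -0.53 to 0.02, adjusted p = 0.9997 by limma). In every same-numbered pair Id2 was lower in EV+ (317 and 349.7, 265 and 339.9, 376 and 451 CPM). The main fit did not use these pairs, so its interval includes the spread between them. Id2 was called here in 0 of 9 other settings, the replicate block among them. EV- was above GN by 0.28 (adjusted p = 0.672) and EV+ by 0.03 (adjusted p = 0.9805), and both comparisons share the GN libraries. In the first EV- library, where the sum of NK and T cell markers was highest, Id2 was 349.7 CPM, the middle value of the EV- group. NK cells also express Id2. NK and T cell markers summed to 1674 and 1702 CPM in control, 1714 and 1768 CPM in GN, 1763 to 1885 CPM in EV+ and 1686 to 2599 CPM in EV- macrophages. Most of this sum came from Cd4, which rat macrophages also express, and Cd8a. By gene, the 21 markers had a median log2 fold change of 1.44 in EV- against GN (15 at an unadjusted p under 0.05) and -1.39 in EV+ against EV- (14), and none of them was called in either. Id2 was also higher in EV- than in GN and EV+, and the part of these cells in the Id2 values was not tested.

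Cebpa, which commits progenitors to the granulocyte and monocyte line, was 46.2 and 55.2 CPM in control, against 44.0 and 41.4 CPM in GN macrophages. It was 38.6, 37.6 and 39.1 CPM in EV+ and 42.9, 35.0 and 38.7 CPM in EV- macrophages. All 6 libraries of ASC-treated nephritis were below both controls, and the GN mean lay between. Of all genes, 4.87% were called between the mean of EV+ and EV- and control, 2.53% as lower, and 3 of the 9 members were called, all lower. At an unadjusted p under 0.05 there were 4 members, these 3 and Runx1 (15.7% of all genes). Only Cebpa and Runx1 did not overlap with control, both lower (17.0% of all genes in either direction, 8.83% lower). Cebpa fell by 0.38 (SE 0.105, adjusted p = 0.0740 by limma). The call was lost with the replicate number as a block (adjusted p = 0.109), in a fit of only the groups compared (0.107) and without the intensity trend (0.128). The block joins libraries of all groups by number, although the controls and GN libraries share only a number. EV+ and EV- differed by -0.01 (95% interval -0.24 to 0.21).

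Cebpb, the C/EBP factor of activated and alternatively activated macrophages, was 5020.0 and 4303 CPM in control, against 4162 and 3724 CPM in GN macrophages. It was 3376, 3471 and 3906 CPM in EV+ and 3325, 3559 and 4335 CPM in EV- macrophages. The third EV- library again lay above the lower control, so the groups overlapped. Cebpb fell by 0.35 in the mean of EV+ and EV- against control (SE 0.0998, adjusted p = 0.0842 by limma). The fall was not called without the trend (adjusted p = 0.244) or in the fit of only the groups compared (0.117). In GN the difference from control was -0.24 and was not called (adjusted p = 0.535).

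Single libraries decided these calls. Without control replicate 1, the adjusted p of the treated groups against control was 0.427 for Id2, 0.108 for Cebpa and 0.460 for Cebpb, and without control replicate 2 it was 0.144, 0.632 and 0.164. Leaving out either GN library, which only adds to the error estimate, also raised all 3 above 0.1 (0.106 to 0.116). Without the first EV- library only Cebpa was called (adjusted p = 0.0622), with 0.124 for Id2 and 0.141 for Cebpb. Without EV- replicate 2 none was called (0.119, 0.124 and 0.137). The call for Cebpb was also lost without EV+ replicate 1 (0.104), and that for Cebpa without EV+ replicate 3 (0.123) or EV- replicate 3 (0.109). The differences stayed negative under every one of these omissions. Among the 4 groups as a whole no member was called (2.57% of all genes were), with 4 of 9 at an unadjusted p under 0.05 (1076 of the 9003 genes). With the block, Id2 (adjusted p = 0.000931) and Cebpb (0.0478) were called there.

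**Figure D2:**
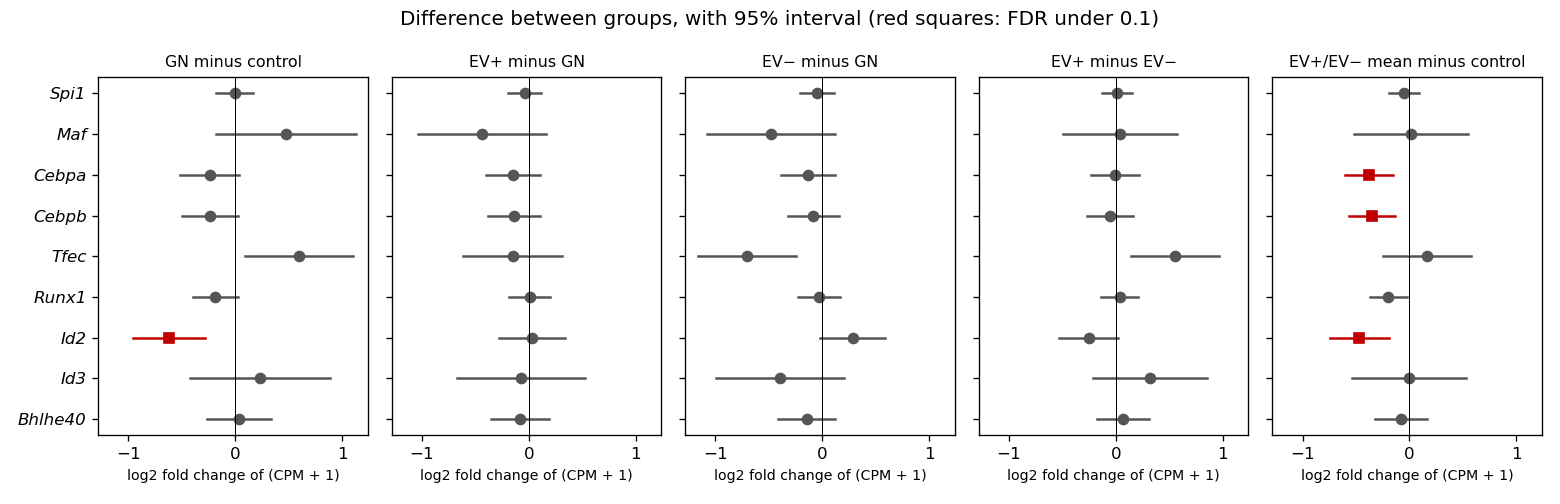
Log2 fold change of CPM + 1 (horizontal axis) of each of the 9 factors in 5 comparisons, with 95% intervals from limma. Red squares mark adjusted p under 0.1, which are Id2 in GN minus control and Id2, Cebpa and Cebpb in the mean of EV+ and EV- minus control, all to the left of 0.

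**Figure D3:**
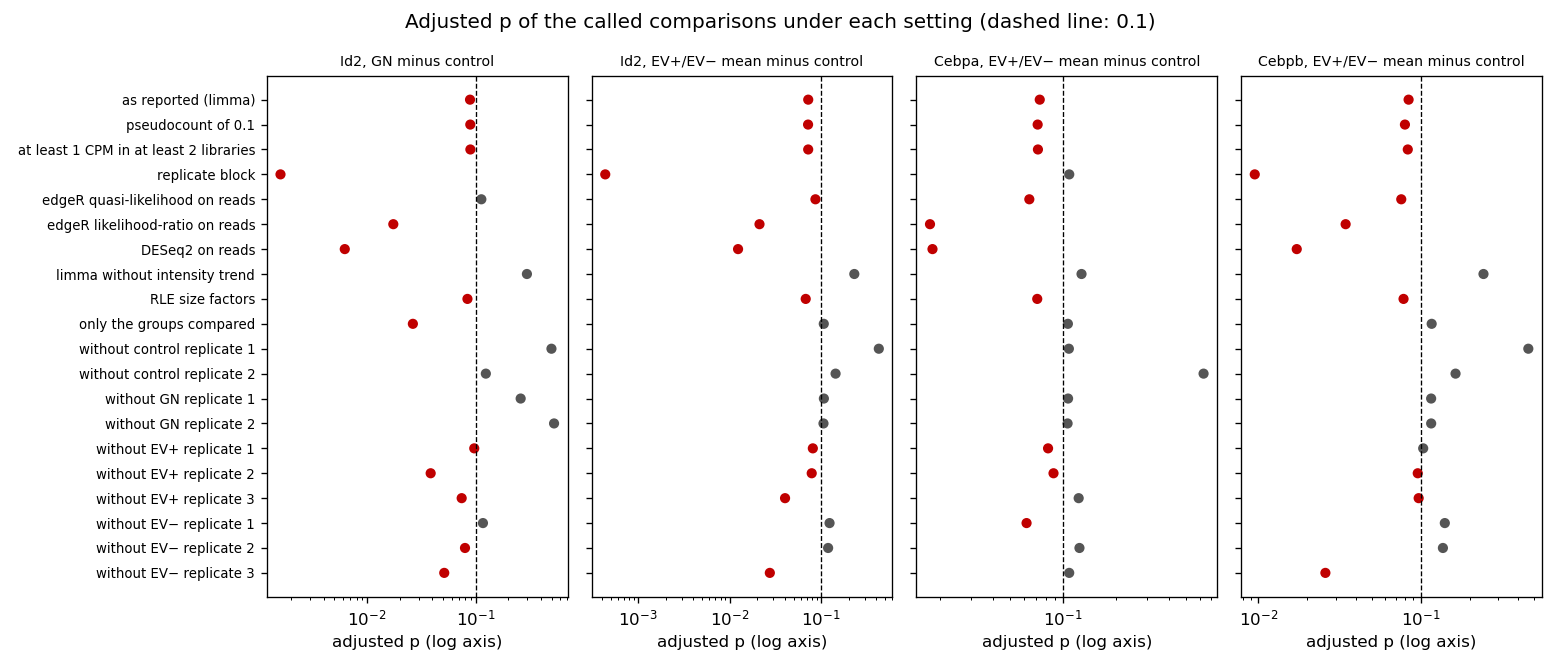
Adjusted p (horizontal log axis) of the 4 called differences under each way of processing and with each library left out. Points left of the dashed line at 0.1 are red, and all 4 panels have points on both sides of it.

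Maf, Tfec and Id3 were the members with both GN libraries above both controls. Maf (c-Maf) drives Il10 and complement C1q in macrophages and limits their division. It was detected at a low level, with 0.539 and 0.289 CPM in control (14 and 7 reads) and 1.18 and 0.753 CPM in GN (30 and 20 reads). It was 0.664, 0.295 and 0.401 CPM in EV+ and 0.292, 0.459 and 0.467 CPM in EV- macrophages, from 6 to 17 reads. Both GN libraries were above the other 8. Only GN replicate 1, at 1.18 CPM, reached the maximum CPM of 1 below which genes had been removed. Maf was thus kept through the group where it was high, so its gap from the other groups is partly built in. The difference was 0.47 for GN against control (95% interval -0.18 to 1.13, adjusted p = 0.657), -0.44 for EV+ against GN (adjusted p = 0.833) and -0.48 for EV- against GN (adjusted p = 0.731), all sharing the GN libraries. None of these was called.

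Tfec, a MiT/TFE factor that is largely restricted to macrophages, was 11.0 and 8.13 CPM in control, against 14.2 and 15.4 CPM in GN. It was 17.6, 9.56 and 13.7 CPM in EV+ and 9.14, 8.77 and 8.17 CPM in EV- macrophages. The EV- libraries lay close together and below every EV+ and GN library, whereas EV+ values ranged from near the EV- level to above GN. The group means were 8.69 ± 0.487 CPM in EV-, 9.55 ± 2.02 CPM in control, 13.6 ± 4.01 CPM in EV+ and 14.8 ± 0.798 CPM in GN. Neither the first 2 nor the last 2 of these differed beyond their spread.

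None of the differences in Tfec between a pair of groups, or between treated nephritis and control, passed the adjustment over all genes. Among the 4 groups as a whole Tfec was not called by limma (adjusted p = 0.239), but it was by edgeR's likelihood-ratio test (0.0526), by DESeq2 (0.0761) and by limma without EV+ replicate 2 (0.0605). EV+ exceeded EV- by 0.56 (95% interval 0.14 to 0.97, adjusted p = 0.962 by limma). EV- lay below GN by a log2 fold change of -0.71 (95% interval -1.17 to -0.24, adjusted p = 0.347), and GN above control by 0.60 (adjusted p = 0.365). Without EV+ replicate 2, the lowest of its group, the difference between EV+ and EV- was 0.77 (adjusted p = 0.360), and without EV+ replicate 1 it was 0.36. Over the 10 libraries Maf and Tfec had a Pearson r of 0.68, which is a description of libraries that share groups.

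Between EV+ and EV-, which compares cells with and without transferred dye in the same treatment, no member was called. In all, 0.0222% of the genes were (2 of 9003, and 4.57% at an unadjusted p under 0.05), or 5 with the replicate block. Of the 9, only Tfec had groups that did not overlap (8.91% of all genes, and 4.25% with EV+ higher). Against GN no member was called in EV+ (0.122% of all genes, 11 genes, and 30 with the block) or in EV- (0.378%, 34 genes, and 53 with the block). By the other tools run on the reads, edgeR and DESeq2, the count of members was also 0 in these 3 comparisons, and at an unadjusted p under 0.05 in limma there was 1 member, Tfec, in EV- against GN (7.85% of all genes) and in EV+ against EV-, and 0 in EV+ against GN (7.13%). Values did not overlap between EV+ and GN for 2 members (23.0% of all genes), Maf and Cebpa, both lower in EV+ (11.8%). Between EV- and GN they did not overlap for 4 members (25.4%), with Maf, Tfec and Id3 lower (12.8%) and Id2 higher (12.6%) in EV-. The gaps of Maf from GN carry the limit that only GN replicate 1 kept it in the table. The median log2 fold change of the members was -0.08, -0.14 and 0.04 for EV+ against GN, EV- against GN and EV+ against EV-, beside -0.01, 0.00 and -0.01 for all genes.

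Id3, the other Id protein, which Kupffer cells need, was close to the limit of detection. It was 0.693 and 0.784 CPM in control, 1.03 and 1.05 CPM in GN, 1.17, 1.01 and 0.669 CPM in EV+, and 0.583, 0.917 and 0.233 CPM in EV- macrophages, from 6 to 30 reads. The lowest library held 6 reads, and no comparison was called. Its difference was largest between EV- and GN, at -0.39 (95% interval -0.99 to 0.21, adjusted p = 0.805). Id2 and Id3 ran in opposite directions over the 10 libraries, with an r of -0.66.

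Bhlhe40 was 636 and 592 CPM in control, 678 and 583 CPM in GN, 499.8, 720.3 and 585 CPM in EV+, and 529, 626 and 552 CPM in EV- macrophages. All groups overlapped. The second EV+ library held the highest and the first EV+ library the lowest value of all, so the spread within EV+ (SD 111 CPM) exceeded any distance between group means. Differences ran from -0.15 in EV- against GN to 0.07 in EV+ against EV- on the log2 scale.

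The relatives of the members were then examined in 7 lists of Ets, Maf, C/EBP, MiT/TFE, Runx, Id or E protein and other macrophage lineage factors, 51 of whose 61 genes were in the table. In GN against control 3 of the 51 were called, all lower (0.822% of all genes were called lower). In the mean of EV+ and EV- against control 6 were, again all lower (2.53% of all genes were called lower). The median log2 fold change of the 51 was -0.06 in both comparisons, against -0.00 and 0.01 for all genes. Pparg, the lipid-sensing nuclear receptor of alternatively activated macrophages, was 210.2 and 220.1 CPM in control, against 145 and 138 CPM in GN. It was 121 to 130.0 CPM in EV+ and 134 to 147 CPM in EV- macrophages. Both controls were thus above the other 8 libraries, and Pparg fell by 0.60 in GN (SE 0.0876, adjusted p = 0.00454) and by 0.70 in treated nephritis (adjusted p = 6.44e-05). Klf2, a quiescence factor, fell by 0.65 (adjusted p = 0.0743) and 0.92 (adjusted p = 0.00101). Its call in GN was lost without any one of the control or GN libraries and without EV+ replicate 3. It was also lost without the intensity trend (adjusted p = 0.257).

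The small Maf factor Maff was 5.39 and 4.95 CPM in control, 3.12 and 3.05 CPM in GN, and 0.815 to 3.01 CPM in the treated groups (-1.01 for treated nephritis against control, adjusted p = 0.0557). Also called lower there, and outside the rule for named genes, were the C/EBP factors Ddit3 (-0.39, adjusted p = 0.0132) and Cebpd (-0.30, adjusted p = 0.0272). Without control replicate 1, Maff, Ddit3 and Cebpd were not called, nor were they without control replicate 2, and Maff was not without EV+ replicate 3 either (0.104). None of the 14 Ets, 3 MiT/TFE, 4 Runx or 5 Id, E protein and Bhlhe relatives in the table was called by limma in any of the 5 comparisons.

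Nr1h3 (LXRα) was the only listed factor that was called between a treated group and GN. It was 68.8 and 70.4 CPM in control, 77.3 and 81.8 CPM in GN, 67.0, 70.5 and 62.2 CPM in EV+, and 55.2, 59.8 and 47.8 CPM in EV- macrophages. All EV- libraries were below all others, and EV- fell below GN by 0.55 (SE 0.106, adjusted p = 0.0609), a call that was lost without either GN library and without EV- replicate 1 or 3 (0.476 at most). The call against GN was also lost without the intensity trend and in the fit of only the groups compared (adjusted p = 0.197 at most). EV+ and EV- differed in Nr1h3 by 0.29 and were not called apart (adjusted p = 0.934).

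**Figure D4:**
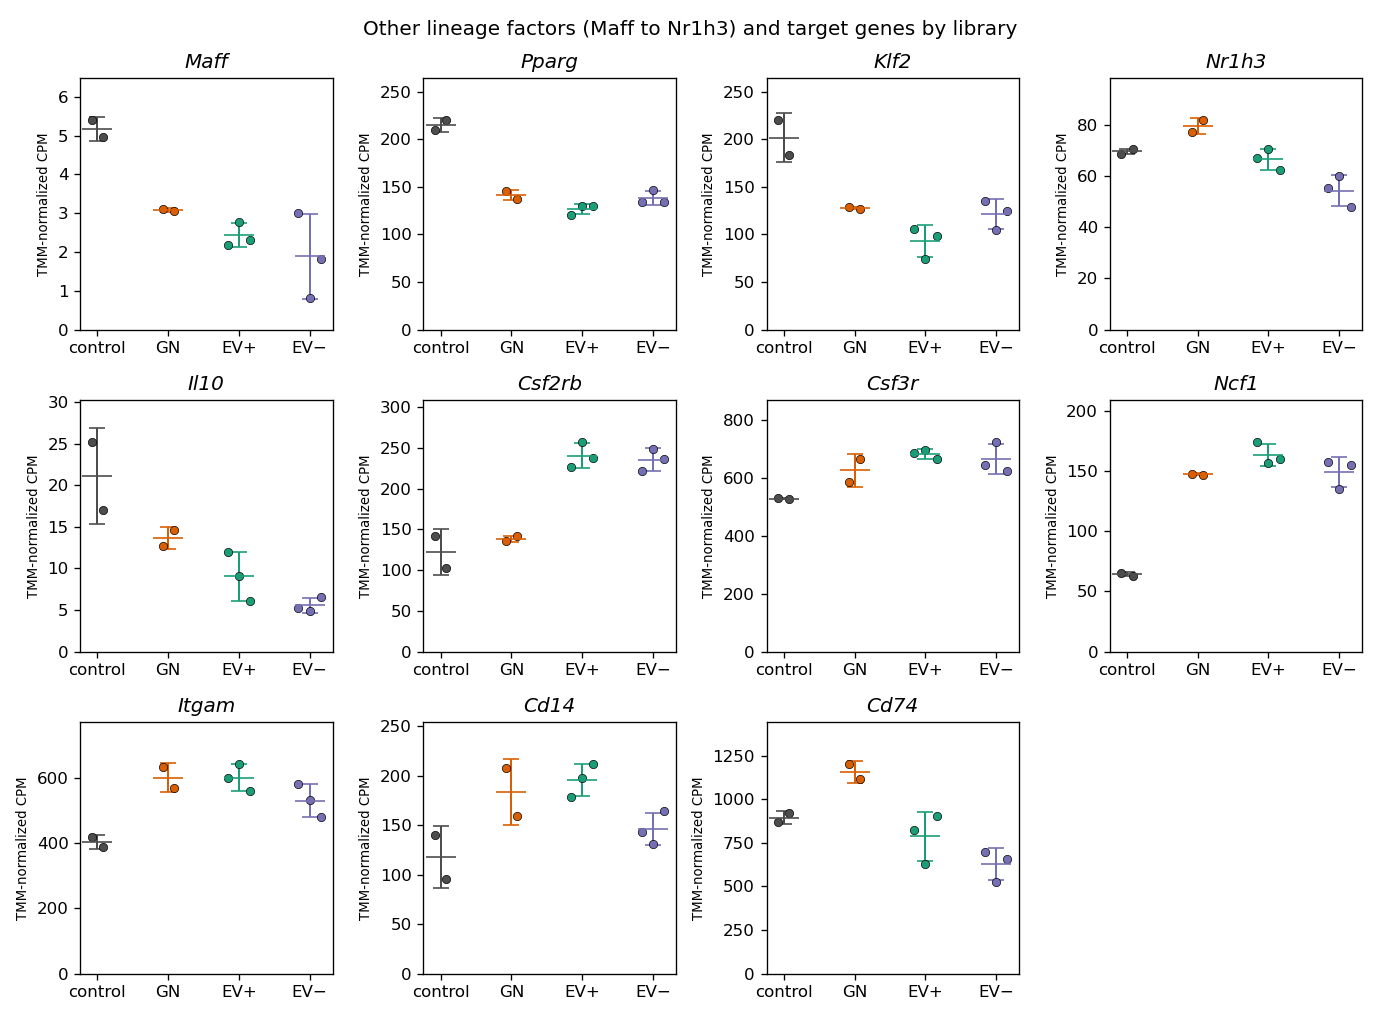
TMM-normalized CPM (vertical axis, from 0) of 4 further lineage factors (Maff, Pparg, Klf2, Nr1h3) and 7 target genes by group. Points are libraries, and bars are the mean and SD. Pparg and Klf2 are highest in the 2 controls, whereas Ncf1 is 65.3 CPM or less in the controls and 135 CPM or more in all other libraries.

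Target genes of the members did not follow one direction. Of the 26 listed myeloid targets of Spi1, Runx1 and C/EBP in the table, 3 were called higher in GN against control (0.933% of all genes were). In treated nephritis against control 8 were called higher (2.33% of all genes were) and 0 lower. By sign alone, called or not, 19 were above and 7 below 0 in GN, and 18 above and 8 below 0 in treated nephritis. The median log2 fold change was 0.16 and 0.10. Csf1r, Cd14, Itgam, Fcgr1a, Cd68, Lyz2, Adgre1 and Mpeg1 are also macrophage markers, so these counts overlap with the marker sum above. Of the 9 macrophage markers in the table, 2 were called in GN against control and 5 in treated nephritis against control, all higher. Ncf1, a subunit of the NADPH oxidase, was 65.3 and 62.9 CPM in control and 135 CPM or more elsewhere, and rose by 1.19 in GN (SE 0.0968, adjusted p = 3.59e-05) and by 1.27 in treated nephritis (adjusted p = 7.39e-07). Itgam (CD11b) rose by 0.57 (adjusted p = 0.0126) and 0.48 (adjusted p = 0.00487). Itgam was also a marker on which the cells were isolated. Cd14 rose by 0.65 in GN (adjusted p = 0.0998), and this call was lost in 4 of 9 other settings and without control replicate 2 or either GN library, among others (0.556 at most). The rise of Itgam in GN was not called without control replicate 2 or GN replicate 1 or without the intensity trend (0.165 at most), nor that in treated nephritis without control replicate 2 (0.121).

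Csf2rb, the shared receptor chain for GM-CSF, IL-3 and IL-5, was the one target that was called higher against GN. It was 142 and 103 CPM in control, 136 and 141 CPM in GN, 227, 257 and 237 CPM in EV+, and 221, 249 and 237 CPM in EV- macrophages. The 6 treated libraries were all above the 4 others. Csf2rb rose by 0.79 in EV+ (SE 0.114, adjusted p = 0.0156) and by 0.76 in EV- (adjusted p = 0.0107) against the same GN libraries, and neither call held when one GN library was left out. Without the intensity trend neither was called (adjusted p = 0.210 in EV+ and 0.171 in EV-). EV+ and EV- differed in Csf2rb by 0.03 (adjusted p = 0.9997). Csf3r, the G-CSF receptor and a classical C/EBP target, rose by 0.35 in treated nephritis against control (adjusted p = 0.0161). Cebpa and Cebpb were lower in this comparison. The Csf3r call was lost without either control and without the intensity trend (adjusted p = 0.112 for the last). Cd74, the invariant chain of MHC class II, was 1202 and 1115 CPM in GN and 523 to 701 CPM in EV- macrophages and fell by 0.89 there (adjusted p = 0.0130, and 0.257 at most without one GN library or without the trend).

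Of the 15 listed target genes of Maf factors, 8 were in the table. Il10, which Maf activates and Bhlhe40 represses, was 25.2 and 17.0 CPM in control, 12.7 and 14.7 CPM in GN, 11.99, 9.14 and 6.11 CPM in EV+, and 5.20, 4.89 and 6.54 CPM in EV- macrophages. It was highest in the controls and lowest, as a group mean, in EV-. Il10 fell by 1.44 in treated nephritis against control (SE 0.217, adjusted p = 0.00205). In EV- against GN it fell by 1.17 (adjusted p = 0.0810). The latter call was lost with the block (0.116), without the intensity trend (0.263), without either GN library and without EV- replicate 1 or 2. EV+ and EV- differed in Il10 by 0.59 (adjusted p = 0.994). The complement genes C1qa, C1qb and C1qc and the receptor Axl were chosen after their values were seen. They were highest in both GN libraries, and the other 3, Mrc1, Cd163 and Gas6, were not and reached at most 1.81 CPM. C1qb, for example, was 11.2 and 8.66 CPM in GN and at most 6.48 CPM elsewhere, and none of the 4 was called (adjusted p = 0.116 to 0.530 in GN against control).

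For each member the 3 genes with the most similar profile were found among genes with a mean of at least 5 CPM, by Pearson r of log2(CPM + 1) over the 10 libraries. Cebpa was most like RT1-DMb (0.94), Nsa2 and Htra2, and Cebpb was most like Rab29 (0.93), Mapk1ip1l and Thoc1. Id2 was most like Rbm38 (0.93), Abi1 and H3f3b. Runx1 was most like Nfkbiz (0.95), Pnrc1 and Zfand5. Tfec was most like Tmx1 (0.92), Plvap and Mob3a, and Maf was most like Tpd52l2 (0.96), Gpank1 and Cdc5l. For Spi1 these were Hypk (0.93), Rac1 and Cox8a, for Id3 Arl6ip4 (0.94), Nsun2 and Trmt12, and for Bhlhe40 Fahd1 (0.91), Adrbk2 and Tox4. Among the members themselves, Cebpb ran with Id2 (r = 0.82) and with Runx1 (0.81). Cebpa, also lower than control in treated nephritis, had an r of 0.54 with Cebpb, 0.48 with Id2 and 0.29 with Runx1. The libraries share groups and normalization, so these values describe the 10 libraries only.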

How the data were processed

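RNA was sequenced from splenic M2 macrophages isolated on CD11b/c beads and sorted, with SMART-Seq v4 and Nextera XT libraries and paired-end reads. The authors aligned reads with STAR 2.5.3 to rn6, counted RefSeq genes with HTSeq 0.6.0, removed genes with a maximum CPM under 1 and deposited TMM-normalized signal (CPM) values. The strand setting is not given in the sources used here, so antisense reads cannot be told apart. Every value (100.0%, tolerance 0.01 reads) was a whole number of reads, so reads were recovered. The floor of 3 reads was 0.113 to 0.153 CPM, for counting error only. The table held 9003 genes, 18 of them with date-like symbols.

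The members and gene lists were chosen with earlier results of these data known. Groups came from the labels. The methods describe biological replicates. No replicate pair agreed within sampling noise (chi-square per degree of freedom 13.5 or more). The main test was limma 3.58.1 (R 4.3.3) with an intensity trend on log2(CPM + 1), all 10 libraries, group only, 6 residual degrees of freedom, and Benjamini-Hochberg adjustment over 9003 genes (FDR 0.1). Scripts used Python 3.11.15, and were tested on simulated data. Alternatives were edgeR 4.0.16 and DESeq2 1.42.0 on reads, another pseudocount, filter, size factor or fit, the replicate block and each library left out. Residuals of same-numbered EV+ and EV- libraries correlated (0.203, 0.295 and 0.122), so these numbers were taken as pairs from the data. The sources do not state such pairing. Control and GN (0.0878 for both pairs) share only a number. Named genes were the 9 members, the listed relatives and targets called in a comparison (at most 5 per direction by fold change), and 3 most similar genes per member. A listed relative that enters the counts is not reported here.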

Additional observations from a re-analysis of the deposited data

How the results depend on the processing

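The number of members called changed with the processing. Among the 4 groups it was 0, but 2 with the replicate block, 2 with edgeR's likelihood-ratio test and 3 with DESeq2. In GN against control it was 1, but 0 by edgeR's quasi-likelihood test and 0 without the intensity trend. In the mean of EV+ and EV- against control it was 3, but 0 without the trend, 0 in a fit of only the groups compared and 2 with the block. With one library left out it ranged from 0 to 1, from 0 to 1 and from 0 to 3 in these, and was 0 in the other 3 comparisons.

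Over all genes, the likelihood-ratio test, DESeq2 and limma without the trend called 616, 543 and 93 genes among the 4 groups (231 in the main test), 292, 294 and 60 in GN against control (158), 43, 41 and 0 in EV+ against GN (11), 126, 113 and 6 in EV- against GN (34) and 57, 34 and 0 in EV+ against EV- (2). Without the trend 267 were called in treated nephritis against control (438). The replicate block gave 30, 53 and 5 in EV+ against GN, EV- against GN and EV+ against EV-, and a pseudocount of 0.1 gave 4 in the last. With one library left out the counts ranged from 97 to 266, 34 to 214, 0 to 18, 7 to 42, 0 to 5 and 120 to 556. Beside the calls named above and in the report for Cebpa, Il10, Id2 and Cebpb, the block changed no other member's call and ended no other call of a listed gene.

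Of the members' log2 fold changes, 387 kept direction and call under other settings, 9 lost the call and 4 changed sign, all 4 with the block: Runx1 (-0.021), Id2 (-0.097) and Id3 (0.064) in EV+ against GN and Id3 (0.13) in treated nephritis against control. With one library left out, 394 kept both, 25 lost the call and 31, none of them called, changed sign. The latter ranged from -0.012 to 0.0030 for Spi1 and -0.073 to 0.14 for Bhlhe40 in GN against control, and from -0.067 to 0.039 for Runx1 in EV- against GN. In EV+ against GN they ranged from -0.066 to 0.011 for Spi1, -0.34 to 0.065 for Tfec, -0.019 to 0.045 for Runx1, -0.095 to 0.16 for Id2, -0.16 to 0.035 for Id3 and -0.22 to 0.046 for Bhlhe40. In EV+ against EV- the ranges were -0.016 to 0.061 for Spi1, -0.059 to 0.12 for Maf, -0.084 to 0.060 for Cebpa, -0.13 to 0.056 for Cebpb, -0.031 to 0.075 for Runx1 and -0.071 to 0.19 for Bhlhe40. In treated nephritis against control they were -0.11 to 0.14 for Maf, -0.029 to 0.36 for Tfec and -0.078 to 0.081 for Id3. The causes were not tested. Maf could not be tested under the filter of 1 CPM in 2 libraries, which removed it. Of the 27 similar genes, 25 were found with a pseudocount of 0.1. Where an arm was left with 1 library, that library was assumed to vary like the other groups. Groups of 2 and 3 libraries, and 6 to 30 reads on Maf and Id3, limit what could be detected.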
